A study of Homo sapiens with 16 samples.

Results

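The comparison described here is the second stretch of the first day of hormone treatment in OVCAR3, an established human ovarian carcinoma line. Cells exposed to 1,25-dihydroxyvitamin D3 (1,25(OH)2D3) for 24 h were set against cells exposed for 8 h, with no vehicle sample in the contrast. The members were the 3 arrays labelled 24 h and the 3 labelled 8 h on the Affymetrix U133A type, chosen by their titles, which makes 6 of the 16 arrays of the series. The other arrays were 3 vehicle and 3 72 h arrays of the same type and 4 arrays of the older U95 type, 1 for each time. The labels give the dose as 0.1 pM for both times. Hormone additions were staggered so that all cultures were harvested together, and every culture, vehicle included, received an equal amount of ethanol for an equal time. All groups were grown in RPMI medium with fetal bovine serum and bovine insulin, so no group was free of serum or of insulin. The 3 replicates came from 3 independent experiments with a single cell line. Before the U133A arrays the response of the cells was checked by Northern blot for GADD45. The contrast asks which transcripts gained or lost expression between 8 and 24 h, that is, after the earliest effects of the hormone had already been established.

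1,25(OH)2D3 is the hormonal form of vitamin D. It binds the vitamin D receptor (VDR), a nuclear receptor that pairs with a retinoid X receptor and acts on DNA at response elements near its target genes. Textbook direct targets include CYP24A1, the hydroxylase that breaks the hormone down, and CAMP, which encodes the antimicrobial peptide cathelicidin. In epithelial cells the hormone is also known for effects on growth, differentiation, calcium handling and inflammatory signalling, and genes of these groups are described below with their values.

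Each value is a MAS5 signal, a brightness per probe set in arbitrary units, where a probe set is a group of oligonucleotides against 1 transcript. Every array had been brought to a 2% trimmed mean of about 500.2, and the median signal of the 6 arrays lay between 179.8 and 193.7. On the log2 scale arrays correlated at 0.971 to 0.973 within 8 h, at 0.969 to 0.974 within 24 h, and at 0.966 to 0.973 across the times. The log2 ratio of 3' to 5' ACTB control probe sets, a measure of RNA integrity, ran from 0.159 to 0.229 at 8 h and from 0.173 to 0.210 at 24 h. Several epithelial and Müllerian markers were bright, with mean signals at 8 and 24 h of 5483 and 4564 for EPCAM, 7013 and 6098 for PAX8, and 4102 and 4208 for WT1. Others in the list of ovarian carcinoma markers were dim, among them PGR (5.54 and 12.2), SPP1 (105 and 136) and ESR1 (184 and 184). Markers of other cell types had signals below those of EPCAM, PAX8 and WT1, and they too were uneven. PTPRC, the pan-leukocyte antigen, had 34.7 and 25.9, the fibroblast proteoglycan LUM 1.45 and 1.32, and the endothelial VWF 32.4 and 24.1. The brightest of each list were ITGAM among leukocyte markers (281 and 289), COL1A1 among fibroblast markers (589 and 502) and ENG among endothelial markers (228 and 180). The summed signal of 12 leukocyte markers ran from 1385 to 1625 at 8 h and from 1138 to 1361 at 24 h, that of 12 fibroblast markers from 1704 to 1962 and from 1559 to 1715, and that of 9 endothelial markers from 538 to 592 and from 505 to 572. In these 3 lists limma called 0 genes, and an unadjusted p under 0.05 was found for 2 fibroblast, 1 endothelial and 0 leukocyte markers. Since RNA was taken from whole cultures, fewer cells expressing a gene and less of its RNA per cell cannot be told apart.

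Few genes separated the times. A fold or log2 difference below is on the scale of log2(signal + 15.833), the offset being the 10th percentile of the pooled U133A signals, and it understates the change of dim genes. An adjusted p is limma's, with Benjamini-Hochberg adjustment over 22215 probe sets, and 0.05 is the threshold for calling a gene higher or lower. At that threshold 15 genes rose from 8 to 24 h, or 0.125% of the 11963 measured, and 6 fell, or 0.0502%. These shares are the background for every count of list members that rose or fell below. In probe sets, 19 rose (0.0855%) and 10 fell (0.045%). The median difference over all genes was -0.02, with an interquartile range from -0.16 to 0.12, and 46.1% of genes had a positive difference. At least 2-fold differences were found for 45 genes in the upward direction (0.376%) and 69 in the downward direction (0.577%), together 0.953%, and most of them did not pass the test. At an unadjusted p under 0.05 there were 3.26% of genes higher and 3.82% lower. In all 21 called genes the 3 values at 24 h lay on 1 side of the 3 values at 8 h. That property was shared by 12.7% of all genes, 5.49% with 24 h above and 7.16% with 24 h below. The spread behind these tests was estimated over all 12 U133A arrays, and when the 6 arrays were fitted alone only WNT11 and CHRDL1 passed. With the replicate number as a block in the fit of all 12 arrays, 24 genes rose and 18 fell, 20 of the 21 among them. Centring each array on its median ended 8 of the 21 calls, those of FLG, IDH2, COL4A1, COL4A2, PGM1, CNIH3, CXCL2 and SDC4, with adjusted p values from 0.064 for CXCL2 to 0.13 for COL4A1, COL4A2 and IDH2.

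**Figure D1:**
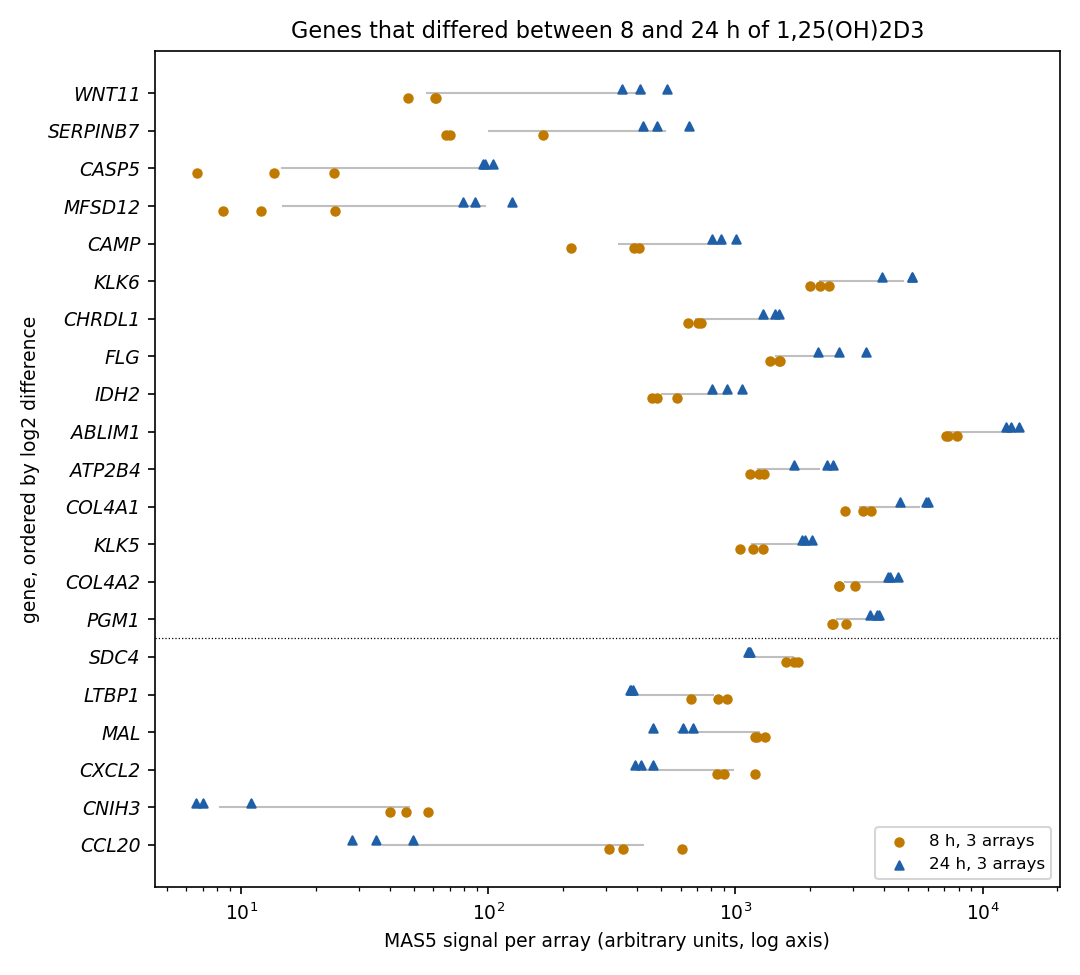
The 21 genes that differed between the times, each with its MAS5 signal (arbitrary units, log axis) on the 3 arrays at 8 h (circles) and the 3 at 24 h (triangles). The genes are ordered by their log2 difference, from WNT11 at 2.61 to CCL20 at -2.997, and the dotted line parts the 15 that rose from the 6 that fell. In each row the circles and the triangles do not overlap.

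Genes for secreted signalling proteins gave the largest and the steadiest rise. WNT11 (206737_at) encodes a Wnt ligand that acts mostly outside the beta-catenin branch. Its signal was 61.4, 47.2 and 60.8 on the arrays at 8 h and 348, 529 and 412 on those at 24 h. The lowest array at 24 h thus stood several-fold above the highest at 8 h. The log2 difference was 2.61 (SE 0.24, 95% interval 2.09 to 3.13), a 6.11-fold rise with an adjusted p of 8.0e-04. CHRDL1 (209763_at) encodes chordin-like 1, a secreted antagonist of bone morphogenetic proteins. It gave 706, 726 and 645 at 8 h and 1503, 1291 and 1441 at 24 h, values that were close together within each time. Its difference was 1.01 (SE 0.087), 2.01-fold, with an adjusted p of 6.3e-04, the lowest of any gene. These were also the genes least affected by single arrays, since leaving out any 1 of the 6 raised the adjusted p no higher than 0.0076 for WNT11 and 0.0055 for CHRDL1.

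Few other genes of these pathways passed the test. Of 44 measured genes of the Wnt pathway 1, WNT11 itself, rose and 0 fell, while 16 had a positive and 28 a negative difference, with a median of -0.10. TSKU, which encodes the secreted Wnt and BMP inhibitor tsukushi, went from a mean of 4339 to 6107 (difference 0.50, adjusted p 0.23). LGR5, a receptor for R-spondins, went from 140 to 64.5 (difference -0.98, adjusted p 0.50). Of 47 genes of TGF-beta, activin and BMP signalling 0 rose and 1, LTBP1, fell, with a median of -0.01. The activin antagonist FST had a mean of 1103 at 8 h and 1470 at 24 h (difference 0.41, adjusted p 0.55).

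Genes for an antimicrobial peptide, secreted proteases, a protease inhibitor and a protein of cornified epithelium were among those that rose. CAMP (210244_at) gave 407, 215 and 390 at 8 h and 1008, 873 and 807 at 24 h. The second array at 8 h was the lowest, and all 3 arrays at 24 h lay well above. Its rise was 2.66-fold (log2 difference 1.41, SE 0.21, adjusted p 0.016). KLK6 (204733_at) and KLK5 (222242_s_at) encode secreted serine proteases of the kallikrein family, and no other coding gene lies between them in the RefSeq order on GRCh38.p14. KLK6 gave 2381, 2009 and 2209 at 8 h and 5173, 3904 and 5185 at 24 h, a 2.14-fold rise (1.10, SE 0.14, adjusted p 0.0083). KLK5 gave 1179, 1297 and 1039 at 8 h and 1916, 1861 and 2041 at 24 h, a 1.65-fold rise (0.72, SE 0.10, adjusted p 0.015). The values of both genes were well apart between the times. SERPINB7 (206421_s_at) encodes a clade B serine protease inhibitor found in keratinocytes. It gave 166, 70.0 and 67.2 at 8 h, where the first array stood above the other two, and 646, 422 and 483 at 24 h, where the first array was again the highest. Its difference was 2.27 (SE 0.30, adjusted p 0.012), 4.82-fold. FLG (215704_at) encodes filaggrin, which bundles keratin filaments in cornifying epidermis. It gave 1519, 1494 and 1376 at 8 h and 2151, 2627 and 3391 at 24 h, with a much wider spread at 24 h than at 8 h. Its rise was 1.82-fold (0.87, SE 0.15, adjusted p 0.044).

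Most members of the same gene lists did not pass. Over all genes 0.125% rose and 0.0502% fell, and 7.08% had an unadjusted p under 0.05. Of 13 measured kallikreins 2 rose and 0 fell, with a median of 0.07 and 4 at an unadjusted p under 0.05. Neither KLK10 (806 to 1051, difference 0.38, adjusted p 0.58) nor KLK7 (197 to 272, 0.43, adjusted p 0.70) passed. Of 9 clade B serpins SERPINB7 was the 1 that rose, while 6 of the 9 had a negative difference and the median was -0.14. Of 33 squamous and keratin genes 1, FLG, rose and 0 fell, with a median of -0.01, and 7 had an unadjusted p under 0.05. KRT23, a type I keratin, went from 812 to 410 (difference -0.95, adjusted p 0.070). Single arrays mattered to several of these calls. The call ended for CAMP without 8 h replicate 3 or 24 h replicates 1 or 2 (adjusted p up to 0.0977) and for KLK6 without 8 h replicate 3 or 24 h replicate 1 (up to 0.0598). It also ended for KLK5 without 8 h replicates 1 or 3 or 24 h replicates 1 or 3 (up to 0.0948) and for SERPINB7 without 8 h replicates 2 or 3 or 24 h replicate 1 (up to 0.072). FLG kept its call only where 24 h replicate 1 was left out, and otherwise reached an adjusted p of up to 0.184.

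COL4A1 and COL4A2, which encode the alpha 1 and alpha 2 chains of the basement membrane collagen IV heterotrimer, both rose. The genes lie head to head and are transcribed in opposite directions from a shared promoter. The stretch between their RefSeq starts, GRCh38.p14 chr13:110307158-110307283 on the plus strand and read towards COL4A2, is shown because a single short segment serves both genes. Capitals mark its CCAAT box.

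COL4A1-COL4A2: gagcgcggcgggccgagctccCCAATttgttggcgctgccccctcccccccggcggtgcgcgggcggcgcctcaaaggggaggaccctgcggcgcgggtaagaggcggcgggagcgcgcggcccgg

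COL4A1 (211980_at) gave 3552, 2790 and 3274 at 8 h and 5914, 4640 and 6009 at 24 h. Its second array was the lowest at both times. The rise was 1.72-fold (log2 difference 0.78, SE 0.13, adjusted p 0.048). COL4A2 (211964_at) gave 3061, 2628 and 2616 at 8 h and 4560, 4128 and 4219.5 at 24 h, a 1.55-fold rise (0.64, SE 0.098, adjusted p 0.022). A second probe set of COL4A1 gave the same difference, 0.78, with an adjusted p of 0.47, and that of COL4A2 gave 1.00 with an adjusted p of 0.072. The CCAAT box was found in 34.6% of 35116 RefSeq promoter windows of 250 bases before to 50 after a start, on either strand, so its presence is common. COL4A1 lost its call without any of the arrays except 24 h replicate 2 (adjusted p up to 0.21), and COL4A2 without any except 8 h replicate 1 (up to 0.15). Centring each array on its median ended both calls (adjusted p 0.13 each), and the mean of the probe sets ended that of COL4A1 (adjusted p 0.098).

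Of 56 measured genes of the matrix and its proteolysis these 2 rose and 0 fell, against 25 positive and 31 negative differences and a median of -0.01. Over all genes 0.125% rose and 0.0502% fell. An unadjusted p under 0.05 was found for 10 of the 56, against 7.08% of all genes. FBN2, which encodes a microfibril protein, went from 2887 to 1966 (difference -0.55, adjusted p 0.084). PLAUR, the urokinase receptor, went from 513 to 728 (0.49, adjusted p 0.11).

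The rest of the genes that rose encode structural, transport and metabolic proteins. ABLIM1 (200965_s_at), an actin-binding LIM protein, gave 7914, 7233 and 7117 at 8 h and 14003, 12435 and 13087 at 24 h, with little spread at either time. Its rise was 1.77-fold (0.83, SE 0.087, adjusted p 0.0017), a second probe set also passed (1.17, adjusted p 0.015), and no single array was needed for the call, the adjusted p reaching 0.022. ATP2B4 (212135_s_at), a plasma membrane pump that exports calcium, gave 1250, 1307 and 1145 at 8 h and 2346, 2486 and 1727 at 24 h. The third array at 24 h was the lowest of that time but still above every array at 8 h. The rise was 1.74-fold (0.80, SE 0.13, adjusted p 0.034), while its other probe sets gave 0.66 and 0.58 with adjusted p values of 0.14 and 0.50. Among 12 genes of epithelial calcium transport it was the 1 that rose, against 0.125% of all genes. The apical calcium channel TRPV6, a known hormone target in intestine, went from 163 to 263 without passing (0.64, adjusted p 0.89).

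IDH2 (210046_s_at), the mitochondrial NADP-dependent isocitrate dehydrogenase, gave 579, 480 and 460 at 8 h and 1059, 922 and 804 at 24 h. This was a 1.81-fold rise (0.85, SE 0.15, adjusted p 0.048), but the gene's other probe set differed by 0.18 (adjusted p 0.97), and the mean of both by 0.52 (adjusted p 0.40). PGM1 (201968_s_at), the phosphoglucomutase that links glycogen to glycolysis, gave 2460, 2790 and 2482 at 8 h and 3492, 3820 and 3756 at 24 h. Its rise of 1.43-fold was the smallest among the genes called (0.52, SE 0.087, adjusted p 0.045). Both genes lost their calls when any 1 of the 6 arrays was left out, with adjusted p values of up to 0.21 for IDH2 and 0.18 for PGM1. ATP2B4 kept its call only without 24 h replicate 3 and otherwise reached an adjusted p of up to 0.179.

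CASP5 and MFSD12 were at the bottom of the scale at 8 h. CASP5 (207500_at), an inflammatory caspase, gave 23.8, 13.6 and 6.6005 at 8 h and 96.8, 95.4 and 104 at 24 h. MFSD12 (220178_at), a transporter of lysosomes and melanosomes, gave 8.41, 12.04 and 23.9 at 8 h and 78.8, 125 and 88.2 at 24 h. Values at 8 h in both genes are around the offset itself, so the size of their rise depended on it, and the signal alone does not show whether they were above background. The difference of CASP5 was 1.95 (SE 0.28, adjusted p 0.016), or 2.83 with an offset of 1 and 1.06 with an offset 4 times larger. That of MFSD12 was 1.90 (SE 0.33, adjusted p 0.049), with 2.73 (adjusted p 0.062) and 1.04 (adjusted p 0.083) at those offsets. The call of CASP5 held only without 8 h replicate 1, with adjusted p values of up to 0.11 otherwise, and that of MFSD12 ended without any of the 6 arrays (up to 0.20).

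The largest fall by 24 h was in a chemokine gene, and a second chemokine gene fell with it. CCL20, which draws CCR6-bearing lymphocytes and dendritic cells, and CXCL2, which draws neutrophils, are textbook targets of NF-kappaB. The 100 bases before the RefSeq start of each are shown because both hold the NF-kappaB motif searched, GGGNNTTTCC on either strand, at almost the same distance. Capitals mark it. The CCL20 stretch is GRCh38.p14 chr2:227813742-227813841 on the plus strand, and that of CXCL2 is chr4:74099196-74099295 on the minus strand.

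CCL20: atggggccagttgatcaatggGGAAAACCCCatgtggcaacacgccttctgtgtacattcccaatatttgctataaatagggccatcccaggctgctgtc

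CXCL2: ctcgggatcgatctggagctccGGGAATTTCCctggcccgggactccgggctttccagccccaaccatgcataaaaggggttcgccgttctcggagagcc

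The match begins at position -79 from the start of CCL20, on the opposite strand to the gene, and at -78 from that of CXCL2. The motif occurred in 1.91% of all 35116 promoter windows, and in 635 of the 27305 genes that had a window. It was found for 13 of the 26 genes of the NF-kappaB and cytokine list that had a window. That list was drawn from textbook knowledge of targets, cytokines and components of the pathway. Among listed genes that were not called, the motif also began at -79 in CXCL1 and CXCL3 and at -78 in NFKB2. The motif and its place were therefore not particular to the genes that fell. Of the 20 called genes with a window 3 held the motif, the other being SERPINB7, and WNT11 had no window. Counted by window, it was in 3 of the 33 windows of called genes (9.09%).

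CCL20 (205476_at) gave 308, 350.9 and 608 at 8 h and 35.1, 49.5 and 28.0 at 24 h. The third array at 8 h was the highest, and every array at 24 h was far below all 3. The fall was the largest of any gene called, 7.98-fold (log2 difference -2.997, SE 0.37, 95% interval -3.79 to -2.20, adjusted p 0.0079). With the offset at 1 it was -3.43 and with the offset 4 times larger -2.22, and of the 6 arrays only 8 h replicate 3 ended the call when left out (adjusted p 0.052). The call also ended when the 6 arrays were fitted alone (adjusted p 0.051). CXCL2 (209774_x_at) gave 843, 902 and 1196 at 8 h, where the third array was again the highest, and 416, 462 and 393 at 24 h. It fell 2.25-fold (-1.17, SE 0.18, adjusted p 0.019). Its call ended without any of the arrays except 24 h replicate 2, with adjusted p values of up to 0.11.

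Most of the 33 measured NF-kappaB and cytokine genes had lower values at 24 h, although few passed. Of them 2 fell and 0 rose, 30 had a negative and 3 a positive difference, and the median was -0.21 against -0.02 over all genes. At an unadjusted p under 0.05 there were 12 of 33, against 7.08% of all genes. The signal summed over the list was 35142 to 39023 at 8 h and 29307 to 30672 at 24 h, ranges that do not overlap. Such sums did not overlap in 11 of the 41 lists examined, 7 with 24 h above and 4 with 24 h below, and the brightest genes weigh most in them. CXCL8, which encodes interleukin 8, went from 1857 ± 49.0 to 1032 ± 172 (SD, n = 3; difference -0.85, adjusted p 0.072). A dimmer probe set of CXCL8, 211506_s_at, passed at the same difference (-0.85, adjusted p 0.015). Against the direction of the list, CSF1, the macrophage colony-stimulating factor, had a mean of 402 at 8 h and 684 at 24 h (0.74, adjusted p 0.070).

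MAL, LTBP1 and SDC4 fell with modest spread. MAL (204777_s_at), a proteolipid of apical membrane rafts that is also a marker of ovarian carcinoma, gave 1318, 1228 and 1196.5 at 8 h and 613, 676 and 464 at 24 h. It fell 2.13-fold (-1.09, SE 0.15, adjusted p 0.015). LTBP1 (202729_s_at), which holds latent TGF-beta in the matrix, gave 848, 661 and 924 at 8 h and 374, 384 and 379 at 24 h. The arrays at 24 h were nearly equal, and the spread lay at 8 h. It fell 2.07-fold (-1.05, SE 0.15, adjusted p 0.015), and a second probe set fell further (-1.74, adjusted p 0.019). SDC4 (202071_at), a cell surface heparan sulfate proteoglycan, gave 1793, 1608 and 1731 at 8 h and 1147, 1119 and 1140.3 at 24 h. Its fall of 1.50-fold was the smallest of the 6 (-0.58, SE 0.083, adjusted p 0.015). These calls ended without any 8 h array or 24 h replicate 1 for MAL (adjusted p up to 0.0805), without 8 h replicates 1 or 3 or 24 h replicates 1 or 3 for LTBP1 (up to 0.101), and without 8 h replicates 1 or 3 or any 24 h array for SDC4 (up to 0.0996).

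CNIH3 (214841_at), an auxiliary protein of glutamate receptors, was dim throughout. It gave 57.2, 40.1 and 46.3 at 8 h and 6.98, 6.58 and 10.9997 at 24 h, while the vehicle mean was 14.7 and the 72 h mean 21.4. The arrays at 8 h were thus the high ones of the whole series of times, and the signal alone does not show whether the gene was above background at 24 h. The difference was -1.40 (SE 0.24, adjusted p 0.048), it ranged from -2.43 (adjusted p 0.097, offset of 1) to -0.63 (adjusted p 0.033, offset 4 times larger), and leaving out any 1 of the 6 arrays ended the call (up to 0.20).

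In 4 genes that were not called, a probe set passed that did not stand for its gene, since a brighter one had been chosen. These were noted after their values were seen. FAM107A, a short actin-associated protein, showed 806, 743 and 907 at 8 h and 55.2, 101 and 185.04 at 24 h in probe set 209074_s_at, a 7.02-fold fall (-2.81, SE 0.29, adjusted p 0.0017). Its brighter probe set went from 445 to 220 (-0.98, adjusted p 0.095). SULF1, an extracellular enzyme that trims sulfate from heparan sulfate, rose in probe set 212353_at (1.01, adjusted p 0.031), and its other probe sets gave 1.02 (adjusted p 0.077) and 0.60 (adjusted p 0.53). FNBP1, a membrane-bending F-BAR protein, fell in probe set 213940_s_at (-0.86, adjusted p 0.029), and its brighter one gave -0.64 (adjusted p 0.24). CXCL8 was the other gene. The 2 called probe sets without 1 annotated gene both rose, 202275_at by 1.17 (adjusted p 0.016) and 209589_s_at by 0.88 (adjusted p 0.021).

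CYP24A1, GADD45A and VDR did not pass between 8 and 24 h. CYP24A1 gave 6045, 6615 and 5895 at 8 h and 8141, 5177 and 8671 at 24 h, so the groups overlapped. Its difference was 0.21 with a 95% interval from -0.55 to 0.97 (adjusted p 0.97). The vehicle mean was 129 ± 103 (SD, n = 3), so the high level at 8 h was already in place. GADD45A, the growth arrest gene behind the Northern blots, gave 1313, 1236 and 1447 at 8 h and 1846, 1516 and 2038 at 24 h, with every array at 24 h above those at 8 h. Its difference was 0.42 with an interval from 0.10 to 0.74 (adjusted p 0.57). VDR itself had means of 480 ± 65.6 and 473 ± 39.6 (SD, n = 3) and a difference of -0.01 with an interval from -0.33 to 0.30. None of these intervals, which are not adjusted for the number of genes, shows that the level was equal at both times.

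Of 40 measured VDR targets 2, KLK6 and CAMP, rose and 0 fell, while over all genes 0.125% rose and 0.0502% fell. An unadjusted p under 0.05 was found for 10 of the 40, against 7.08% of all genes. The others included DUSP10, a phosphatase of stress kinases (821 to 1196, difference 0.54, adjusted p 0.21), and S100A8, a calcium-binding alarmin (353 to 186, -0.89, adjusted p 0.40), and the list's median was 0.06. Among 16 genes for the hormone's synthesis, breakdown, uptake and receptor partners limma called 0, and 3 had an unadjusted p under 0.05. RXRA, the receptor's partner, went from 860 to 592 (-0.52, adjusted p 0.26), and LRP2, the endocytic receptor megalin, from 333 to 183 (-0.82, adjusted p 0.26).

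Set beside the vehicle and 72 h arrays, the genes that rose differed in when their signal moved. WNT11 had means of 34.2 in vehicle, 56.5 at 8 h, 430 at 24 h and 1165 at 72 h, and SERPINB7 had 49.7, 101, 517 and 1086, so most of their rise fell after 8 h. CAMP had 30.8, 338, 896 and 1138, and KLK6 had 829, 2200, 4754 and 6136. On the log2 scale much of the rise of both came before 8 h, while in signal units their largest step was from 8 to 24 h. COL4A1 had 1688, 3205, 5521 and 5369, and its 72 h arrays were no higher than those at 24 h. FLG had 1093, 1463, 2723 and 5702 and was the 1 called gene that also differed between 24 and 72 h (1.08, adjusted p 0.037). The comparisons of 8 h with vehicle and of 24 h with 8 h share the 8 h arrays, so their values are given side by side. Between vehicle and 8 h, WNT11 differed by 0.56 (adjusted p 0.89) and SERPINB7 by 0.77 (adjusted p 0.74), whereas CAMP differed by 2.87 (adjusted p 3.5e-05) and KLK6 by 1.39 (adjusted p 4.7e-04).

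The genes that fell between 8 and 24 h were mostly below vehicle at 72 h. CCL20 had means of 863 in vehicle, 422 at 8 h, 37.5 at 24 h and 61.1 at 72 h, CXCL2 had 1611, 980, 424 and 497, MAL had 1519, 1248, 584 and 412, and LTBP1 had 939, 811, 379 and 296. The contrast of 72 h with vehicle takes its difference from other arrays than the 6 compared here, but its test comes from the same fit and shares the estimate of each gene's spread. In it 14 of the 15 genes that rose from 8 to 24 h were called higher, against 1.91% of all genes, and 5 of the 6 that fell were called lower, against 1.40%. The exceptions were CASP5, with means of 26.2 in vehicle and 65.1 at 72 h (difference 0.96, adjusted p 0.11), and CNIH3 (0.32, adjusted p 0.65).

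**Figure D2:**
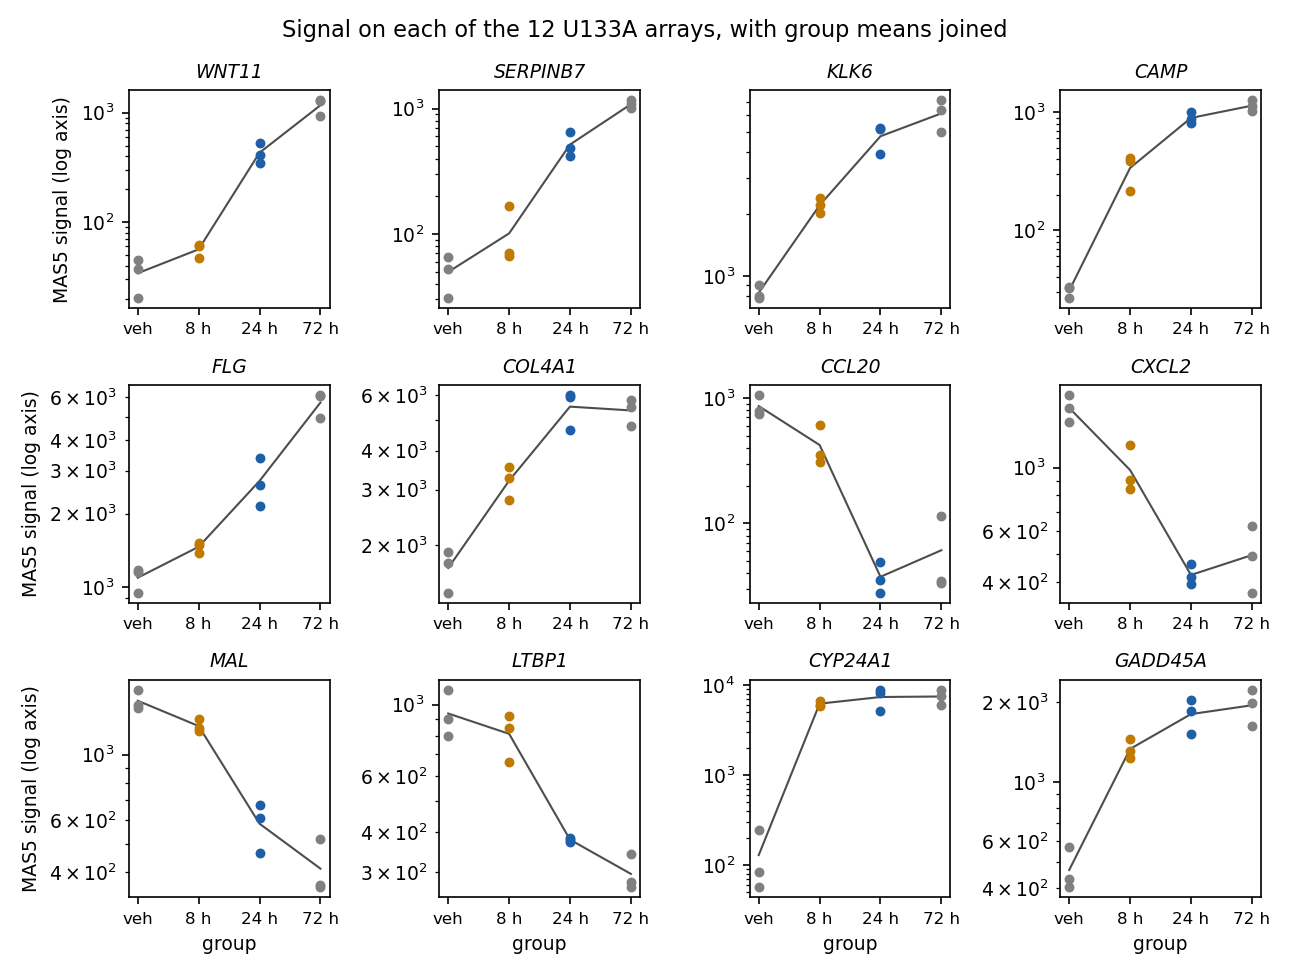
MAS5 signal (arbitrary units, log axes that differ between panels) on each of the 12 U133A arrays for 12 genes, by group: vehicle and 72 h in grey, 8 h in orange, 24 h in blue, with lines through the group means. WNT11 and SERPINB7 climb mainly after 8 h, CYP24A1 is at its high level by 8 h, and CCL20 and CXCL2 are low at 24 h and 72 h alike.

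None of the cell cycle genes listed passed the test. Of 54 measured genes of mitosis limma called 0, 10 had a positive and 44 a negative difference, the median was -0.16, and 10 had an unadjusted p under 0.05. Their summed signal was 88752 to 95321 at 8 h and 80943 to 84790 at 24 h, another of the 11 lists of 41 without overlap. The spindle motor KIF11 went from 1172 to 935 (difference -0.33, adjusted p 0.45), and HMMR, a spindle-associated hyaluronan receptor, from 946 to 729 (-0.36, adjusted p 0.47). In 48 genes of DNA replication limma called 0, 29 had a negative difference, the median was -0.07 and 4 had an unadjusted p under 0.05. The replication clamp PCNA went from 1619 to 1232 (-0.40, adjusted p 0.60). In 27 genes of G1 control limma also called 0, with a median of -0.07 and 3 at an unadjusted p under 0.05. In 26 p53 targets, GADD45A among them, it called 0, with 13 differences of each sign and 2 at an unadjusted p under 0.05. Of all genes, 7.08% had such a p.

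Among 39 interferon response genes limma called 0, with 27 negative and 12 positive differences, a median of -0.07 against -0.02 over all genes, and 8 at an unadjusted p under 0.05. IFITM3, a membrane protein that blocks viral entry, went from 4247 to 3324 (-0.35, adjusted p 0.11), and its relative IFITM1 from 909 to 550 (-0.77, adjusted p 0.45). The leukocyte marker list given above had a median of -0.21, with 0 of its 12 genes at an unadjusted p under 0.05. Its sum was also lower at 24 h, as those of the cytokine and interferon lists were. The cultures were of a single cell line, and the signals of these markers were low, from PTPRC at 34.7 and 25.9 to ITGAM at 281 and 289. A link between the lists was not tested. Among 35 ovarian carcinoma markers 1, KLK6, rose and 1, MAL, fell, with a median of 0.04. Over all genes 0.125% rose and 0.0502% fell. An unadjusted p under 0.05 was found for 13 of these markers, against 7.08% of all genes. VTCN1, the immune checkpoint ligand B7-H4, went from 894 to 380 (-1.25, adjusted p 0.17), and the tight junction protein CLDN3 from 1583 to 1075 (-0.55, adjusted p 0.14).

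**Figure D3:**
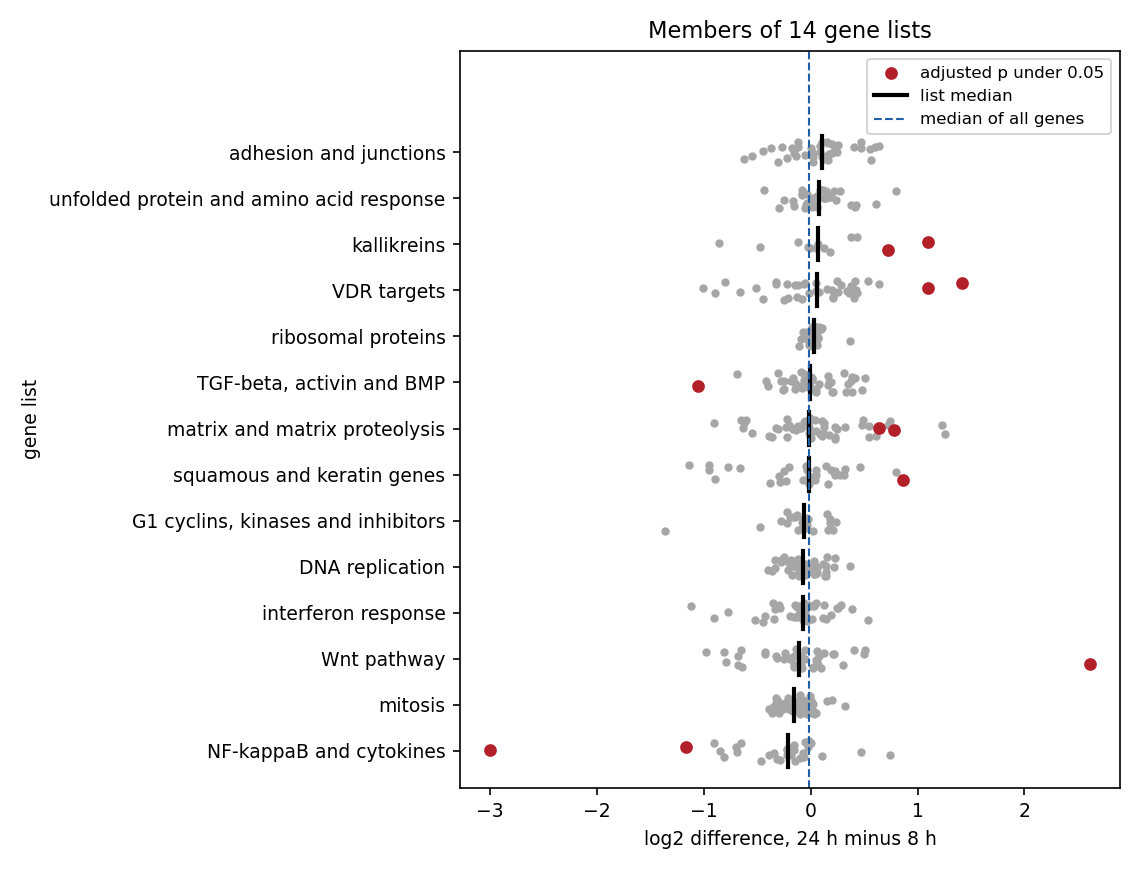
Log2 difference, 24 h minus 8 h, of each measured member of 14 gene lists, with called members as large red points, list medians as black bars and the median of all genes, -0.02, as a dashed line. The list of NF-kappaB and cytokine genes has the lowest median (-0.21), and WNT11 and CCL20 are the red points farthest from 0.

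The U95 arrays gave a second look without replicates, and so without a test. A gene was matched by symbol, and 8115 genes were on both types, of which 45.1% had a ratio of 24 h to 8 h above 1 on U95. Of 13 genes that rose on U133A and were on U95, 12 had a ratio above 1, and of the 6 that fell, 5 had a ratio below 1. On the log2 scale the U95 ratio was 1.60 for FLG, 1.39 for CAMP, 1.08 for CHRDL1 and 0.31 for WNT11. For CCL20 it was -1.06, for LTBP1 -1.16, for MAL -1.04 and for CXCL2 -0.86. WNT11 was already bright on U95 in vehicle (550), with 688 at 8 h and 855 at 24 h. Its 6.11-fold rise from a low signal on U133A was thus not matched in size on U95. The genes that went the other way were the dimmest there, CASP5 with signals of 1.75 at 8 h and 1.02 at 24 h and CNIH3 with 8.10 and 21.97.

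**Figure D4:**
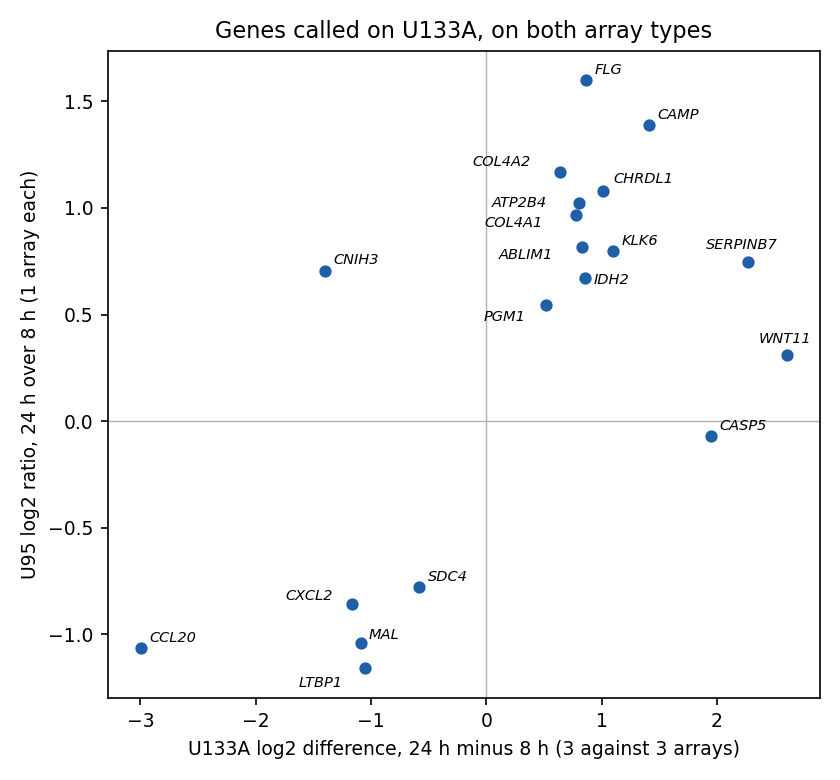
Log2 difference on U133A (x axis, 3 against 3 arrays) against the log2 ratio on U95 (y axis, 1 array at each time) for the 19 called genes on both types. All points but CASP5 and CNIH3 have the same sign on both axes.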

How the data were processed

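RNA of OVCAR3 cells was hybridised to 12 U133A and 4 U95 arrays. Each deposited number is the intensity of a probe set. The submitters' processing notes name MAS5 without its version, and all 6 arrays had been scaled to 1 trimmed mean. The intensities were taken unchanged, and no detection calls were used. Of 22283 U133A probe sets 68 are controls. Of the rest, 19065 have 1 gene in the platform annotation, 1043 several and 2107 are not listed, and 19053 symbols were updated through RefSeq (GRCh38.p14). The brightest probe set over 12 arrays stood for each of 11963 genes, 4310 of which had several.

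Values were taken as log2(signal + 15.833) and fitted with limma 3.58.1 (eBayes with trend) in R 4.3.3 over 12 arrays in 4 groups (8 residual degrees of freedom) and without a filter. P-values were adjusted over 22215 probe sets. The number of arrays limits the precision. A script with the same fit was tested on simulated data. Named genes were the 15 with the largest difference in each direction among called genes whose groups did not overlap, the members of each list with the smallest p (at most 4), and CYP24A1, CAMP, GADD45A and VDR. Defining cell markers were added. The comparison, the 41 gene lists (textbook knowledge) and the tests were chosen with earlier results of these data known. Alternatives were other offsets, a filter, quantile normalization, median centring, the 6 arrays alone, a replicate block, no trend, the mean of probe sets, and each array left out. Promoter sequences came from RefSeq.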

Additional observations from a re-analysis of the deposited data

How the results depend on the processing

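The main counts were 15 genes higher and 6 lower, and 19 probe sets higher and 10 lower. No called gene changed direction under any alternative run. A filter at the 40th percentile gave 11 lower genes and 16 lower probe sets, and 60.7% of its calls were higher, against 71.4%. Median centring gave 3 lower genes, and 11 higher and 6 lower probe sets. The 6 arrays alone gave 2 higher genes, 2 higher probe sets and 0 lower of either. eBayes without trend gave 3 higher and 1 lower genes, and 3 and 2 probe sets. Averaging all probe sets per gene gave 12 lower genes, with 60.0% of calls higher. A filter on 1 probe set per gene, chosen after seeing the data, gave 26 higher and 20 lower genes, 18 of them among the 21. Leaving out 1 array gave 3 to 9 higher and 0 to 5 lower genes, and 3 to 14 higher and 1 to 8 lower probe sets, the fewest genes without 8 h replicate 3. Offsets of 1 and of 4 times the main value, and quantile normalization, kept 19, 17 and 18 of the 21. With the replicate number as a block, 24 genes and 34 probe sets were higher and 18 and 26 lower, 20 of the 21 among them. The block added, of genes named here, ASNS (adjusted p 0.0040), VTCN1, KRT23, FBN2, CLDN3, CXCL8, TSKU and PLAUR (0.012 to 0.0499), and FNBP1 (0.010). CXCL8 and KRT23 were also added by both filters and by the mean of probe sets (0.011 to 0.049). The filter at the 40th percentile further added CSF1, IGFBP4 and FAM107A (0.033 to 0.037). The mean of probe sets added FAM107A (difference -1.89, adjusted p 0.0012), DUSP10 (0.015) and DPYSL3 (0.036). Deviations of arrays with the same number correlated at 0.031 to 0.055 over all probe sets and at 0.091 to 0.110 above the filter, where all other pairs were negative. Deviations from the mean of the 3 arrays of a time sum to 0. Positive values for the same number therefore make the other pairs negative on balance. Not every pair reached the 0.1 needed to treat the numbers as pairing, though each array correlated best with its own number. Independent experiments harvested together may each have spanned both times, but no label says that a number is shared across times. The block was therefore kept as an alternative to the main fit. WNT11 and CHRDL1 were called in all 16 settings they could be read in, and ABLIM1 and CCL20 in 14.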

Other observations

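Listed genes of amino acid supply, growth factor binding, adhesion and the cytoskeleton were described by their values. In the main fit none of them passed the test from 8 to 24 h. In other fits ASNS passed with the replicate block (adjusted p 0.0040), IGFBP4 with the 40th percentile filter (0.033) and DPYSL3 with the mean of probe sets (0.036). With the filter on 1 probe set per gene, chosen after seeing the data, ASNS, ITGB5 and MYL9 also passed (0.033 each). Of 36 genes of the unfolded protein and amino acid response limma called 0, 23 had a positive difference, the median was 0.07, and 6 had an unadjusted p under 0.05, against 7.08% of all genes. ASNS, asparagine synthetase, went from 903 to 1584 (difference 0.80, adjusted p 0.10). MTHFD2, a mitochondrial folate enzyme, went from 2436 to 3169.6 (0.38, adjusted p 0.23), PSPH, which makes serine, from 215 to 338 (0.61, adjusted p 0.26), and TRIB3, a pseudokinase induced by ATF4, from 696 to 950 (0.43, adjusted p 0.61). In the insulin-like growth factor axis 0 of 14 genes were called by limma and 2 had an unadjusted p under 0.05. IGFBP4, a binding protein that holds the growth factors back, went from 495 to 924 (0.86, adjusted p 0.073).

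Of 39 adhesion and junction genes limma called 0, with 26 positive and 13 negative differences, a median of 0.11 and 10 at an unadjusted p under 0.05. The integrin subunit ITGB5 went from 2489.95 to 3674 (0.56, adjusted p 0.10), and CDH1, E-cadherin, from 2744 to 3627 (0.40, adjusted p 0.24). Among 37 cytoskeleton regulators limma called 0 and 10 had an unadjusted p under 0.05. The myosin light chain MYL9 went from 392 to 670 (0.74, adjusted p 0.10) and DPYSL3, a regulator of the actin and tubulin skeleton, from 190 to 404 (1.02, adjusted p 0.15). EGFR, the epidermal growth factor receptor, went from 1293 to 869 (-0.61, adjusted p 0.50). By contrast, 50 ribosomal protein genes had a median of 0.03 with 0 called by limma and 0 at an unadjusted p under 0.05.

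In 15 further lists limma called 0 genes, with 0 to 5 members at an unadjusted p under 0.05 in each and medians from -0.09 to 0.09. They covered death receptors, the BCL2 family, immediate early genes, C/EBP factors, MAP kinase phosphatases, steroid receptors, glycolysis, respiration, sterol synthesis, fatty acid metabolism, oxidative stress defence, heat shock proteins, the proteasome, developmental transcription factors and the calcitonin family.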
